A study of Mus musculus with 16 samples.

Results

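Described here are 10 genes of the NF-kB system: its subunits Nfkb1, Nfkb2 and Relb and the feedback inhibitors and modulators Nfkbia, Nfkbie, Bcl3, Nfkbiz, Tnfaip3, Birc3 and Zc3h12a. They were taken by gene symbol from a table of 14829 genes, and all 10 were present in it. RNA was sequenced from hematopoietic stem cells, which maintain all blood lineages, taken from the marrow of 8 mice, 4 young and 4 old. Marrow of each mouse was divided and held for 1 hour at 37 °C with vehicle or with dmPGE2, a dimethyl analogue of prostaglandin E2 that is broken down slowly. The cells were then sorted, which gave 16 libraries in 4 groups of 4: young vehicle, young dmPGE2, old vehicle and old dmPGE2. No genotype, strain, sex or age in months is given in the labels. The study asked how a pulse of the prostaglandin acts on young and on aged stem cells.

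NF-kB is a family of dimeric transcription factors that switch on genes of inflammation and survival. In resting cells IkB proteins hold most dimers in the cytoplasm, and signals from cytokine or microbial receptors activate the IKK kinases, which mark IkB for destruction. The freed factors then induce their own brakes, among them new IkB and the ubiquitin editor A20, so the RNA of these brakes is widely read as a trace of recent signalling. Some receptors of prostaglandin E2 raise cyclic AMP, a different route into the nucleus that can reach some of the same genes. In mice, loss of A20 or of the RNase Regnase-1 from blood-forming cells is known to disturb stem cell quiescence.

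The sample descriptions carry 2 consecutive dates, called date 1 and date 2, with 2 young and 2 old mice on each. What was done on those dates is not given in the sources used here. Library totals ran from 12960704 to 19226963 counts. The 12 stem cell markers summed to 5010 to 6400 CPM (counts scaled to a common library size) on date 1 and to 3570 to 5190 CPM on date 2. The 9 neutrophil markers in the table summed to 4.11 to 9.43 CPM on date 1 and to 742 to 1440 CPM on date 2. The 6 erythroid markers in the table summed to 33.8 to 56.5 CPM and 312 to 1150 CPM. Myeloid progenitor markers (6) summed to 911 to 1310 CPM and 2250 to 4120 CPM, and monocyte and macrophage markers (10) to 496 to 715 CPM and 952 to 1710 CPM. The 20 immediate-early genes, which answer stress and many signals within minutes, summed in vehicle libraries to 3580 to 9330 CPM on date 1 and to 11800 to 22900 CPM on date 2. In such bulk RNA, fewer cells of a type and less RNA per cell cannot be told apart. For the members called after dmPGE2 or by age, values are given on each date beside those that pool the dates.

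Compared per kilobase of exon (RPKM, CPM divided by the exon length in the table), Nfkbia was the most abundant member. It encodes IkB-alpha, the fast-acting cytoplasmic inhibitor, and stood at 215 ± 66.5 RPKM (SD, n = 8) in vehicle libraries. Nfkb1, which encodes p105 and its product p50, followed at 38.4 ± 4.84 RPKM (SD, n = 8). The lowest Nfkbia library, at 119 RPKM, lay above the highest Nfkb1 library, at 44.3 RPKM. Bcl3 stood at 25.8 ± 12.5, Tnfaip3 at 23.5 ± 16.3, Nfkbie at 23.3 ± 5.40, Nfkbiz at 22.1 ± 20.8, Birc3 at 19.4 ± 4.05 and Nfkb2 at 17.5 ± 3.04 RPKM (SD, n = 8 each). Relb was lower, at 11.0 ± 6.05 RPKM, and Zc3h12a lowest, at 4.67 ± 1.60 RPKM (SD, n = 8 each). From Nfkb1 downward the ranges of neighbours in this order overlapped. The spread differed widely between members: Nfkb1 stayed between 30.2 and 44.3 RPKM in vehicle libraries, while Nfkbiz ran from 2.37 to 55.3 RPKM.

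**Figure D1:**
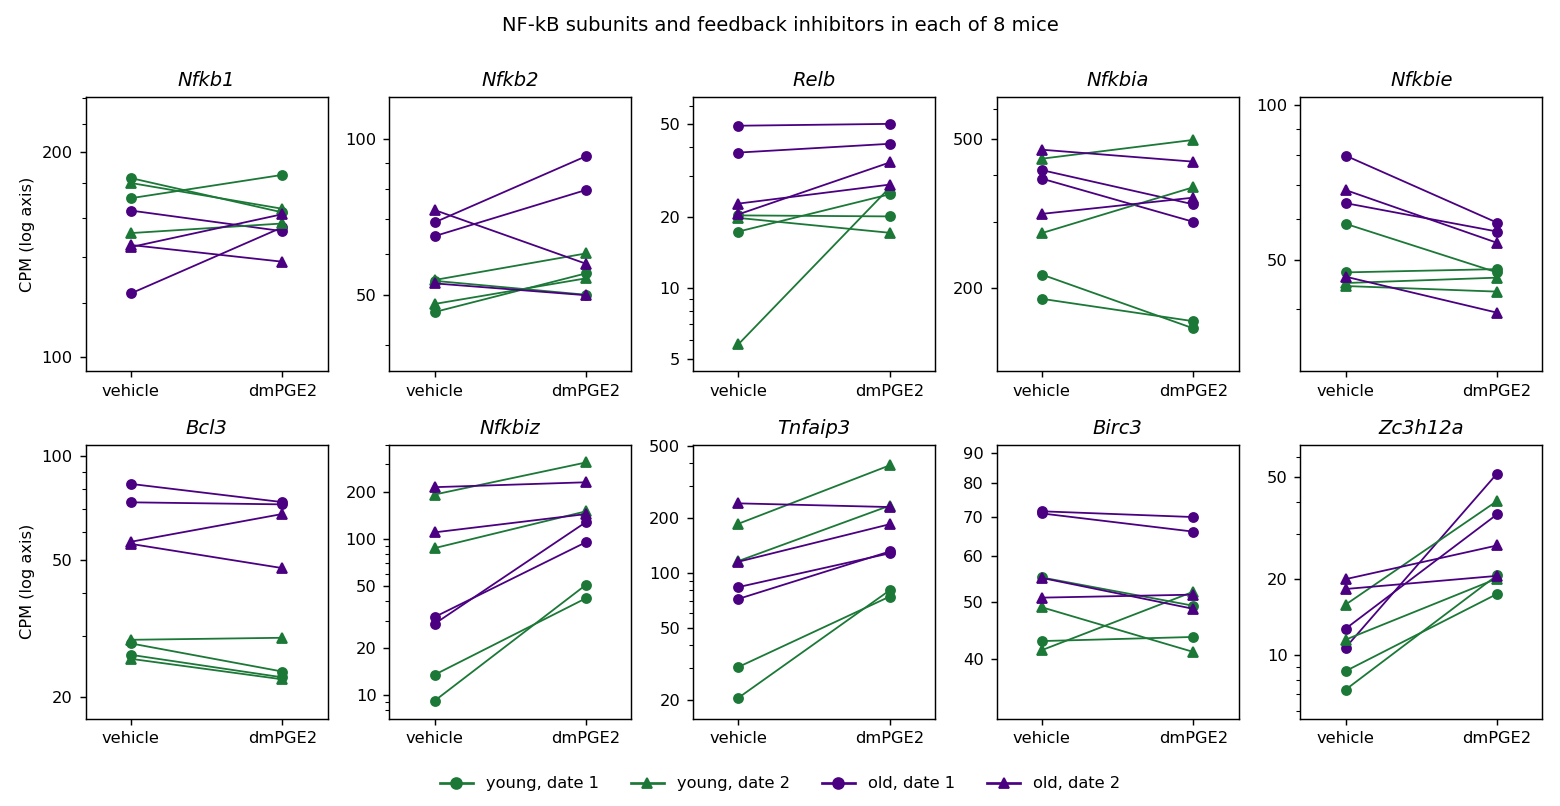
Level of each of the 10 genes (CPM, log axis, a separate scale per gene) in the vehicle and dmPGE2 libraries of each mouse, joined by a line; green is young, purple old, circles date 1 and triangles date 2. Lines of Nfkbiz, Tnfaip3 and Zc3h12a slope upward on date 1, old and young mice separate for Bcl3 (55.6 to 83.0 against 25.8 to 29.3 CPM with vehicle), and date 2 vehicle libraries lie high for Nfkbiz and Tnfaip3.

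Promoter windows from RefSeq on build GRCm38.p6, running from 250 bases before to 50 bases after a start site, were matched for 7 of the 10 members. Those of 4 members are shown because their RNA behaved differently. Tnfaip3 (chr10:19015361-19015660, minus strand) and Zc3h12a (chr4:125127832-125128131, minus strand) each rose after dmPGE2 over all mice. Nfkbia (chr12:55492598-55492897, minus strand) fell slightly on date 1, and Bcl3 (chr7:19822706-19823005, minus strand) differed by age. Sequences read 5′ to 3′ on the strand of the gene, and capitals mark matches on either strand to the kappa-B consensus of NF-kB or to TGACG, the core of the cyclic AMP response element.
Tnfaip3: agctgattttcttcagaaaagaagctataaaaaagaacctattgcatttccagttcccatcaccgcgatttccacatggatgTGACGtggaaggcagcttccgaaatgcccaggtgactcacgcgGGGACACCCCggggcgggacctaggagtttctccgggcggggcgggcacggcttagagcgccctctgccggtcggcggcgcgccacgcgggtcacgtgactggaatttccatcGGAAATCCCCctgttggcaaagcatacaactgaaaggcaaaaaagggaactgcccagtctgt
Zc3h12a: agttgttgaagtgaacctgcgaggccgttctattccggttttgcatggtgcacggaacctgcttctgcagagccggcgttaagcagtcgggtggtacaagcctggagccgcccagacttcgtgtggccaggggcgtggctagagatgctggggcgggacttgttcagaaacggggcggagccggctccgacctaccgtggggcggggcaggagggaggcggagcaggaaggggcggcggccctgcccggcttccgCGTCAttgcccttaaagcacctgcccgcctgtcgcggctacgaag
Nfkbia: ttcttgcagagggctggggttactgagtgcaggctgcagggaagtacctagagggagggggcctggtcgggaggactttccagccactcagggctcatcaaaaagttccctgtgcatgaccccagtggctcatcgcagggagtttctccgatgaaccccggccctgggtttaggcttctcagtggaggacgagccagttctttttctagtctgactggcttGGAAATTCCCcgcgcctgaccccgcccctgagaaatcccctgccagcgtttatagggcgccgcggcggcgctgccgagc
Bcl3: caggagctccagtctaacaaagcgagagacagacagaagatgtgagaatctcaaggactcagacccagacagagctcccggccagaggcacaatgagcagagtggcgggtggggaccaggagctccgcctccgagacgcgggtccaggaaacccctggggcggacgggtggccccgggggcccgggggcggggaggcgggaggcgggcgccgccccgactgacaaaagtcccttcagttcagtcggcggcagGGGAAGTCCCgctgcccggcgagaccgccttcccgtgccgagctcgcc
The Tnfaip3 window shown holds kappa-B matches at -125 to -116 and at -12 to -3 from the start site (counted as +1). It also holds a TGACG at -168 to -164. Another Tnfaip3 window (chr10:19011914-19012213, minus strand) holds no kappa-B and no TGACG match. The Nfkbia window holds a kappa-B match at -29 to -20, and the Bcl3 window holds one at +3 to +12. The Zc3h12a window holds no kappa-B match and has TGACG on the opposite strand at +6 to +10. The 7 members had 10 windows. A kappa-B match occurred in 7 of these 10 windows, from 5 members, and in 4.51% of the 32851 mouse promoter windows of 300 bases. All 3 windows of Nfkb2 held a match, and those at chr19:46305445-46305744 and chr19:46305680-46305979 overlap and share the site gggactttcc. The members were chosen as genes of the NF-kB system, so their share beside that of all windows is no test. TGACG occurred in 4 of the 10 windows, from 3 members, and in 20.8% of all windows. The full element TGACGTCA occurred in none of the 10 windows of these members and in 1.79% of all windows. A match describes letters in a window and does not show that a factor binds there.

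After dmPGE2 the RNA of 3 members, Tnfaip3, Zc3h12a and, on date 1, Nfkbiz, rose, and that of the subunits did not pass the test. Over all mice Tnfaip3 rose 1.89-fold and Zc3h12a 2.19-fold. On date 1 Nfkbiz rose 3.88-fold, Zc3h12a 2.96-fold and Tnfaip3 2.27-fold, each in 4 of 4 mice, and Nfkbia fell. On date 2 no member passed the test, and for Nfkbiz and Nfkbia the response itself differed between the dates.

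Tnfaip3 encodes A20, which trims ubiquitin chains from signalling complexes upstream of IKK. On date 1 its level went from 30.3 to 74.0 and from 20.5 to 80.1 CPM in the young mice and from 83.4 to 128 and from 71.8 to 131 CPM in the old mice. On date 2 it went from 186 to 390 and from 116 to 234 CPM in the young mice and from 241 to 230 and from 115 to 185 CPM in the old mice. The level was higher with dmPGE2 in 7 of 8 mice, the exception being an old mouse of date 2. Over all mice the log2 change was 0.92 ± 0.11 (SE; adjusted p = 0.0126, edgeR quasi-likelihood test with Benjamini-Hochberg adjustment over 13942 genes). It was 1.18 ± 0.13 on date 1 (adjusted p = 0.000173) and 0.67 ± 0.12 on date 2 (adjusted p = 0.0503), and the difference of -0.51 ± 0.18 between the dates did not pass (adjusted p = 0.356). The date 2 change passed without mouse 477, 478 or 485 (adjusted p = 0.0339, 0.0357 and 0.0219) and with no filter on low counts (0.0392). Without young mouse 477 or without old mouse 479 the adjusted p over all mice was 0.0525 and 0.0591, and without the pairing of the mice it was 0.811.

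Zc3h12a encodes Regnase-1, an RNase that cuts messenger RNAs of inflammation such as that of interleukin 6. On date 1 its level went from 7.31 to 20.6 and from 8.65 to 17.4 CPM in the young mice and from 12.7 to 35.8 and from 10.7 to 51.8 CPM in the old mice. On date 2 it went from 15.8 to 40.4 and from 11.5 to 20.0 CPM in the young mice and from 19.9 to 27.0 and from 18.2 to 20.5 CPM in the old mice. The level was higher with dmPGE2 in 8 of 8 mice, and on date 1 the vehicle and dmPGE2 libraries did not overlap. The log2 change was 1.13 ± 0.20 over all mice (adjusted p = 0.0322), 1.57 ± 0.18 on date 1 (adjusted p = 0.000298) and 0.69 ± 0.18 on date 2 (adjusted p = 0.228). The call over all mice was lost without any 1 of mice 477, 478, 479, 480 and 483, with adjusted p values of 0.141, 0.105, 0.117, 0.0723 and 0.0746.

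Nfkbiz (chr16:55811377-55838641, minus strand, mm10) encodes IkB-zeta, a nuclear IkB protein that helps p50 to switch on late genes of inflammation. On date 1 its level went from 13.5 to 41.7 and from 9.20 to 50.8 CPM in the young mice and from 31.6 to 95.2 and from 28.6 to 128 CPM in the old mice. All 4 dmPGE2 libraries of that date lay above all 4 vehicle libraries, with a log2 change of 1.96 ± 0.13 (adjusted p = 2.8e-06, edgeR quasi-likelihood test). On date 2 it went from 192 to 308 and from 87.2 to 150 CPM in the young mice and from 214 to 230 and from 110 to 144 CPM in the old mice, a log2 change of 0.49 ± 0.12 that did not pass (adjusted p = 0.201). The vehicle libraries of date 2 all lay above those of date 1, and the response was smaller by 1.47 ± 0.18 on the log2 scale on date 2 (date 2 minus date 1: -1.47, adjusted p = 0.00101). Over all mice the change was 1.18 ± 0.31 and did not pass (adjusted p = 0.205), although it was upward in 8 of 8 mice. With date terms in the fit the same mean passed (1.22, adjusted p = 6.18e-06). It also passed by the DESeq2 Wald test (1.22, adjusted p = 0.0048) and in edgeR without robust estimation (1.18, adjusted p = 0.0435). It did not pass without the pairing (adjusted p = 0.932) or with any 1 mouse left out (adjusted p from 0.156 to 0.449).

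**Figure D2:**
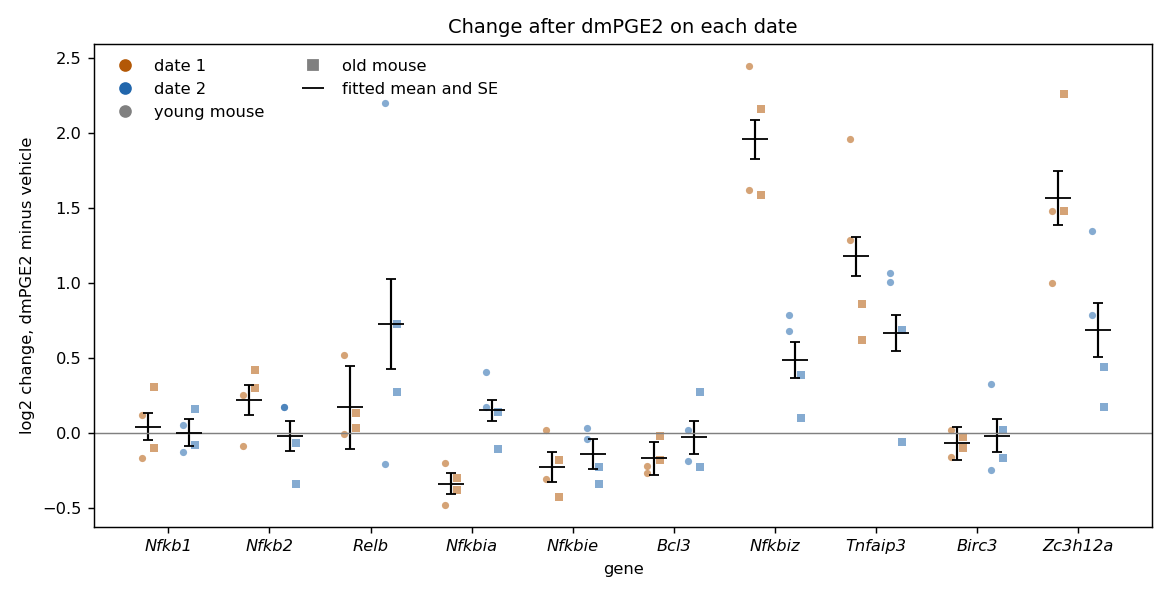
Change after dmPGE2 of each of the 10 genes on the log2 scale, for each mouse (points; circles young, squares old) and as fitted mean with SE (black bars), with date 1 in orange and date 2 in blue. Nfkbiz, Tnfaip3 and Zc3h12a lie above 0 in all 4 mice of date 1, and the fitted means for Nfkbiz are 1.96 on date 1 and 0.49 on date 2.

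These counts stand against the following backgrounds. Over all mice 2 of the 10 members were higher and none lower at an adjusted p under 0.05, where 0.610% of all genes tested were called. On date 1, 3 members were higher and 1 lower, against 2.93% of genes called. On date 2 none was called, against 0.387% of genes; 5 members had an unadjusted p under 0.05 there, as did 8.63% of genes, and DESeq2 called 2 members among 133 genes. For the difference between the dates 1 member was higher and 1 lower, against 1.08% of genes. The median change over the 10 members was close to that of all genes, 0.06 against 0.00 over all mice and 0.10 against 0.00 on date 1.

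Nfkbia went the other way on date 1 from Nfkbiz, Tnfaip3 and Zc3h12a. Its level fell from 187 to 163 and from 217 to 156 CPM in the young mice and from 412 to 334 and from 391 to 300 CPM in the old mice. It was thus lower with dmPGE2 in 4 of 4 mice, with a log2 change of -0.34 ± 0.07 (adjusted p = 0.0165, edgeR quasi-likelihood test). On date 2 it was 442 and 496, 280 and 371, 467 and 434, and 315 and 348 CPM with vehicle and dmPGE2 in mice 483, 484, 485 and 486. That is a log2 change of 0.15 ± 0.07 that did not pass (adjusted p = 0.569), and the responses of the dates differed by 0.49 ± 0.09 (adjusted p = 0.0302). The date 1 call was lost without mouse 478, 479 or 480 (adjusted p = 0.195, 0.0882 and 0.179) and without the pairing (0.356). The difference between the dates was lost without mouse 478, 479, 480, 484 or 486 (adjusted p = 0.146, 0.100, 0.180, 0.118 and 0.116) and without the pairing (0.553). The microRNA gene Mir1198 overlaps exons of Nfkbia on the opposite strand in the table, and without knowledge of the strand used in counting their reads cannot be told apart.

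The other 6 members did not pass the test after dmPGE2 over all mice or on either date. Nfkb1 changed by 0.02 ± 0.06 on the log2 scale over all mice, with individual mice between -0.17 and 0.31. Nfkb2, which encodes p100 and p52 of the non-canonical route, changed by 0.22 ± 0.10 on date 1 (adjusted p = 0.349) and by -0.02 ± 0.10 on date 2 (adjusted p = 0.977). The end of its last exon meets that of Psd on the opposite strand. Relb (chr7:19606222-19629438, minus strand, mm10), the partner of p52, changed by 0.43 ± 0.21 over all mice (adjusted p = 0.428). One mouse, young 483, supplied much of that value: its vehicle library held 5.75 CPM and its dmPGE2 library 26.8 CPM, and without it the change was 0.19. On date 2 Relb passed only without mouse 484 (1.36, adjusted p = 0.014). Nfkbie, which encodes IkB-epsilon, was lower in 6 of 8 mice at -0.19 ± 0.07 (adjusted p = 0.272). Bcl3 changed by -0.10 on the log2 scale (adjusted p = 0.634). Birc3, which encodes the ubiquitin ligase cIAP2 of the TNF receptor complex, ran between 41.4 and 71.5 CPM with vehicle and between 41.1 and 69.9 CPM with dmPGE2.

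Separately, neither age reached the threshold for any gene of the table (0% of genes called in old mice and 0% in young mice), so no member was called in either. At an unadjusted p under 0.05, 1096 genes and 3 members passed in old mice and 1785 genes and 3 members in young mice, and DESeq2 called 114 genes with 1 member in old and 277 genes with 2 members in young mice. Nfkbiz changed by 1.03 ± 0.44 in old and by 1.33 ± 0.45 in young mice on the log2 scale. Zc3h12a changed by 1.09 ± 0.29 and by 1.16 ± 0.28. Tnfaip3 changed by 0.52 ± 0.16 in old mice (adjusted p = 0.389) and by 1.32 ± 0.16 in young mice (adjusted p = 0.0576), where it passed without mouse 480 or 485 (adjusted p = 0.0412 and 0.00685). The difference of -0.79 ± 0.23 for Tnfaip3 (old minus young) did not pass the test (adjusted p = 0.696), nor did that of any gene (0% called; 955 genes and 1 member at an unadjusted p under 0.05, and 17 genes but no member by DESeq2, which gave 2 members, Relb and Zc3h12a, no adjusted p). Within a date the difference for Tnfaip3 was -0.88 ± 0.26 on date 1 (adjusted p = 0.770) and -0.73 ± 0.25 on date 2 (adjusted p = 0.542). With date terms in the fit, Nfkbiz and Zc3h12a passed in both ages, at 1.06 ± 0.13 and 1.10 ± 0.18 in old mice (adjusted p = 0.000565 and 0.00788) and 1.38 ± 0.13 and 1.17 ± 0.18 in young mice (adjusted p = 8.65e-05 and 0.00557). Tnfaip3 then passed in young mice (1.33 ± 0.13, adjusted p = 0.000107). Within date 1, in a comparison chosen after seeing the data, Nfkbiz and Zc3h12a passed in old mice (1.88 ± 0.18, adjusted p = 9.16e-05, and 1.88 ± 0.26, adjusted p = 0.00168) and Nfkbiz, Tnfaip3 and Zc3h12a passed in young mice (2.04 ± 0.20, 1.62 ± 0.19 and 1.25 ± 0.26). Within date 2 only Tnfaip3 in young mice passed (1.04 ± 0.18, adjusted p = 0.0361).

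Bcl3 and Relb were the members called by age. Bcl3, which encodes an atypical IkB protein that binds p50 and p52 homodimers in the nucleus, was 2.40-fold higher in old than in young mice with vehicle and 2.63-fold higher with dmPGE2. Relb was 1.98-fold and 1.69-fold higher. The remaining 8 members did not pass the test in either treatment with all mice in the fit. Without young mouse 483 or without old mouse 486, Nfkbia, Nfkbiz and Tnfaip3 passed with vehicle (log2 0.78, 1.18 and 1.18 without 483, and 0.74, 1.06 and 1.23 without 486). Birc3 passed with vehicle without mouse 484 (0.47), Nfkb2 and Nfkbie without mouse 485 (0.46 and 0.50), and Nfkbia, Nfkbiz, Birc3 and Zc3h12a with dmPGE2 without mouse 483 (0.61, 0.86, 0.44 and 0.81).

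Bcl3 held 26.5 and 28.6 CPM in young and 83.0 and 73.4 CPM in old vehicle libraries of date 1, and 25.8 and 29.3 CPM in young and 56.4 and 55.6 CPM in old vehicle libraries of date 2. With dmPGE2 it held 22.8 and 23.7 CPM in young and 73.5 and 72.4 CPM in old mice of date 1, and 22.5 and 29.7 CPM in young and 67.9 and 47.3 CPM in old mice of date 2. The ages did not overlap in either treatment, and the 4 young mice lay within a narrow band. The log2 difference, old minus young, was 1.26 ± 0.13 with vehicle (adjusted p = 0.000161) and 1.40 ± 0.16 with dmPGE2 (adjusted p = 0.000306), by the edgeR quasi-likelihood test with a term for date. With vehicle it was 1.5 ± 0.15 within date 1 and 1.02 ± 0.15 within date 2, and with dmPGE2 1.63 ± 0.20 and 1.16 ± 0.20, each past the threshold. It was called with any 1 mouse left out.

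Relb held 17.4 and 20.4 CPM in young and 49.2 and 37.8 CPM in old vehicle libraries of date 1, and 5.75 and 19.9 CPM in young and 22.9 and 20.6 CPM in old vehicle libraries of date 2. With dmPGE2 it held 25.1 and 20.2 CPM in young and 50.1 and 41.2 CPM in old mice of date 1, and 26.8 and 17.2 CPM in young and 27.6 and 34.3 CPM in old mice of date 2. The ages did not overlap in either treatment, but on date 2 they lay within 1 CPM of each other at the nearest. The log2 difference was 0.99 ± 0.30 with vehicle (adjusted p = 0.0454) and 0.75 ± 0.18 with dmPGE2 (adjusted p = 0.0199). The vehicle call was lost without any 1 mouse other than 484, with adjusted p from 0.0532 to 0.122, and within either date (0.139 and 0.332). The dmPGE2 call was lost without mouse 477, 478, 479, 480 or 484, with adjusted p from 0.0526 to 0.0809, and within date 2 (0.247).

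**Figure D3:**
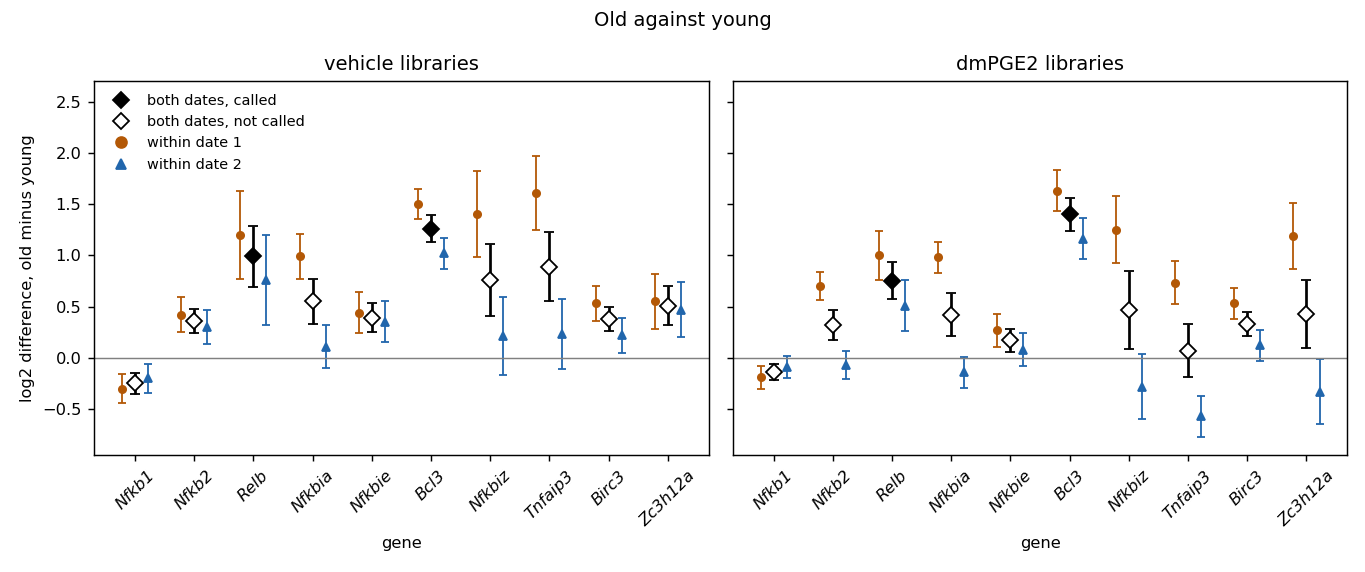
Log2 difference, old minus young, of each of the 10 genes with SE, in vehicle libraries (left) and dmPGE2 libraries (right); black diamonds are the fit over both dates (filled where called), orange circles date 1 alone and blue triangles date 2 alone. Bcl3 lies at 1.26 with vehicle and 1.40 with dmPGE2 with both dates above 1, whereas Tnfaip3 with vehicle is 1.61 on date 1 and 0.23 on date 2.

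In vehicle libraries 2 of 10 members were called higher in old mice and none lower. Of all genes tested 17.3% were called in either direction, a share close to that of the members. At an unadjusted p under 0.05 (edgeR quasi-likelihood test) 9 of the 10 members passed, against 31.4% of genes. The median difference over the members was 0.53 on the log2 scale against 0.00 over all genes, and 9 of 10 members lay above 0, Nfkb1 being the exception at -0.25 ± 0.10 (adjusted p = 0.0983). In dmPGE2 libraries 2 members were called higher and none lower against 14.3% of genes, and the median was 0.37 against -0.01. There 3 members had an unadjusted p under 0.05, as did 27.9% of genes. The 2 treatments share their mice, so these counts are not independent. Within date 1 alone the vehicle difference was 1.61 ± 0.36 for Tnfaip3 (adjusted p = 0.0301) and 0.99 ± 0.22 for Nfkbia (adjusted p = 0.0259). Within date 2 it was 0.23 ± 0.34 and 0.11 ± 0.21 (adjusted p = 0.746 and 0.816), and whether the dates differ in this was not tested. With dmPGE2 within date 1, Nfkb2 (0.70 ± 0.14, adjusted p = 0.0217) and Nfkbia (0.98 ± 0.15, adjusted p = 0.00631) passed beside Bcl3 and Relb. Other quantities moved with age in vehicle libraries, beside Bcl3 and Relb as well. Stem cell markers summed to 5010 to 5240 CPM in young and 5620 to 6400 CPM in old libraries of date 1, and to 3570 to 3750 CPM and 4930 to 5190 CPM on date 2. Immediate-early genes summed to 3580 to 3850 CPM in young and 8190 to 9330 CPM in old libraries of date 1, and to 11800 to 12500 CPM and 14400 to 22900 CPM on date 2. On date 1, T and NK cell markers (9) summed to 76.4 to 100 CPM in young and 136 to 183 CPM in old libraries. On date 2 their order was reversed, with 278 to 282 CPM in young and 178 to 227 CPM in old libraries. The part of these sums in the result was not tested. On date 1 the neutrophil markers S100a8 and Ngp were at most 3.78 and 0.995 CPM. Of the T and NK cell markers, Cd3e was at most 0.164 CPM on that date. Klrb1c and Nkg7 of the same list ran from 6.1 to 156 and from 23.5 to 81 CPM there. On date 2 neutrophil markers summed to 1260 to 1440 CPM in young and 742 to 749 CPM in old vehicle libraries, and erythroid markers to 1080 to 1150 CPM and 414 to 484 CPM.

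The members that rose after dmPGE2 were also those that stood higher in the vehicle libraries of date 2 than of date 1. Nfkbiz was 8.05-fold higher (log2 3.01 ± 0.37, adjusted p = 0.000769, edgeR quasi-likelihood test), with 9.20 to 31.6 CPM on date 1 and 87.2 to 214 CPM on date 2. Tnfaip3 was 3.67-fold higher (1.87 ± 0.35, adjusted p = 0.00911), with 20.5 to 83.4 CPM and 115 to 241 CPM. Zc3h12a was 1.68-fold higher (0.74 ± 0.19, adjusted p = 0.0263), with 7.31 to 12.7 CPM and 11.5 to 19.9 CPM. The dates did not overlap for Nfkbiz or Tnfaip3 and overlapped for Zc3h12a. No other member was called (Relb was without mouse 484, at -1.25), and 11.0% of genes tested were. These vehicle libraries are also the controls of the dmPGE2 comparison, so the vehicle level and the response share values. The call was lost for Tnfaip3 without mouse 477 (adjusted p = 0.0643) and for Zc3h12a without mouse 477, 478, 480, 483 or 485 (adjusted p from 0.0509 to 0.0914). Neutrophil, erythroid, myeloid progenitor and immediate-early sums differed between the dates as given above, and their part in the result was not tested.

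Of the NF-kB pathway beyond the 10 members, 103 genes were listed by role and 94 tested for dmPGE2. Over all mice 1 was higher and none lower, against 0.610% of all genes called. On date 1, 6 were higher and 1 lower, against 2.93%, and on date 2, 1 was higher and none lower, against 0.387%. The largest response belonged to Nfkbid, which encodes IkBNS, a nuclear IkB protein akin to IkB-zeta. It rose 8.11-fold on date 1 (log2 3.02 ± 0.11, adjusted p = 5.8e-09) and 1.53-fold on date 2 (0.61 ± 0.10, adjusted p = 0.0188), and the difference of -2.41 ± 0.14 between the dates passed (adjusted p = 1.61e-06). Its vehicle level was 4.36-fold higher on date 2 than on date 1 (2.12 ± 0.21, adjusted p = 6.98e-05). Of its 3 promoter windows, 1 (chr7:30422156-30422455, plus strand) holds a TGACGTCA at -51 to -44 together with kappa-B matches at -226 to -217 and -181 to -172.

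Among known NF-kB target genes 5 of 22 tested rose on date 1 and none fell, where 2.93% of all genes were called. They included Ier3, a stress response gene, at 1.66 ± 0.08 (adjusted p = 1.29e-07), Gadd45b, a stress sensor of growth arrest, at 1.74 ± 0.17 (adjusted p = 5.33e-05) and the transcription factor Irf1 at 0.57 ± 0.05 (adjusted p = 4.29e-05). Gadd45b was also the pathway gene called over all mice (1.22 ± 0.19, adjusted p = 0.0169). None of the 15 kinases, 10 adaptors, 15 receptors and 7 ligands tested was called on either date. The main activating subunits did not pass over all mice: Rela stood at 0.04 ± 0.05 (adjusted p = 0.851) and Rel at 0.55 ± 0.16 (adjusted p = 0.175; 0.76 ± 0.21 on date 1 and 0.32 ± 0.21 on date 2). The kinase genes Chuk, Ikbkb and Ikbkg changed by 0.19 ± 0.10, 0.15 ± 0.07 and 0.20 ± 0.06, and the A20 partner Tnip1 and the deubiquitinase Cyld by -0.08 ± 0.06 and 0.01 ± 0.07. Tnip2, another A20 partner, fell on date 1 by 0.48 ± 0.11 on the log2 scale (adjusted p = 0.0445). The ligand Tnf changed by 1.35 ± 0.44 over all mice (adjusted p = 0.217; 1.85 ± 0.67 on date 1 and 0.93 ± 0.61 on date 2), and the second inhibitor of the cytoplasm, Nfkbib, by -0.03 ± 0.08. All 20 immediate-early genes rose on date 1, with a median of 2.30, and 9 of 20 on date 2, with a median of 0.51.

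With age, 10 of 92 tested pathway genes were higher and 3 lower in old vehicle libraries, and 10 and 4 of 92 in dmPGE2 libraries. These shares lay near or below the 17.3% and 14.3% of all genes called, so they do not set the pathway apart. Tnip3, an A20-binding inhibitor, was 2.44-fold higher with vehicle (1.29 ± 0.12, adjusted p = 0.000126) and 2.74-fold higher with dmPGE2 (1.45 ± 0.15, adjusted p = 0.000199). Traf1, an adaptor of TNF receptors, was higher by 0.63 ± 0.13 and 0.75 ± 0.16 on the log2 scale (adjusted p = 0.00816 and 0.0101). Nfkbid was higher by 0.97 ± 0.21 and 0.44 ± 0.11 (adjusted p = 0.00871 and 0.0268). Tnfrsf13c, the receptor for the B cell factor BAFF, was lower at -1.27 ± 0.16 and -0.92 ± 0.25 (adjusted p = 0.000607 and 0.0312), and Ebi3, a cytokine subunit, was lower at -1.48 ± 0.16 and -1.41 ± 0.18 (adjusted p = 0.000212 and 0.00056). Between the dates 14 of 92 were higher and 6 lower in vehicle libraries of date 2, against 11.0% of all genes called. They included the cytokine gene Il1b and, as the 3 target genes of smallest p, chemokine genes. Il1b stood at 5.33 ± 0.70, Ccl5 at 4.77 ± 0.28, Ccl4 at 4.34 ± 0.31 and Cxcl2 at 4.11 ± 0.38 (adjusted p = 0.000772, 1.6e-06, 1.95e-05 and 3.94e-05, edgeR quasi-likelihood test). Date 1 vehicle levels were low: 0.164 to 1.03 CPM for Il1b, 0.603 to 2.56 for Ccl5, 0.6 to 2.07 for Cxcl2 and 7.95 to 10.7 for Ccl4. The lowest Il1b level lay near 3 counts, so the size of its difference is uncertain.

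The genes whose dmPGE2 response was most like that of 3 members were found by the root-mean-square difference of the within-mouse log2 changes over the 8 mice, among 10627 genes with a mean of at least 2 log2 CPM. For Nfkbia these were Rab3a at 0.0863, Mir1198 at 0.0994 and Pmm1 at 0.107, of which Mir1198 is the overlapping gene named above. For Tnfaip3 they were Dll4 at 0.361, Dusp4 at 0.467 and Thbd at 0.469. For Zc3h12a they were Fosl1 at 0.344, Per1 at 0.358 and Sertad1 at 0.364. These distances describe likeness only, and all of them share the libraries and the depth of the members.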

How the data were processed

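The authors deposited a table of raw counts per gene, without normalization; per the submitters' processing notes, STAR 2.5.2b, featureCounts, Subread 1.5.1 and build mm10 were used. Strand setting and annotation: not given in the sources used here. Every one of the 14829 genes exceeded 0.5 CPM in at least 2 libraries, and 2504 empty lines followed. Exon lengths and positions are those of the table. CPM, RPKM and log2 CPM (prior count 2) were computed here, and 3 counts equal 0.156 to 0.231 CPM. Tests used glmQLFit and glmQLFTest of edgeR 4.0.16 under R 4.3.3, with TMM scaling, robust estimation and filterByExpr, and a gene counted as called where its p, adjusted by Benjamini and Hochberg over all genes tested, was under 0.05. The dmPGE2 fits held mouse as a block, with terms by age or by age and date (6 and 4 residual degrees of freedom), and the fits of old against young held date (5). The block comes from the design, which divided each mouse's cells; the libraries of a mouse correlated at 0.375 to 0.626 after removal of group means. SE is the absolute log2 change over the square root of F. The tests were checked on simulated counts with known changes. Those counts held no effect of date on the level or on the response, so the check does not cover such effects. Alternatives were DESeq2 1.42.0 and its size factors, no filter, no robust estimation, no block, other date terms and each mouse left out in turn. Other pathway genes were 10 fixed names and up to 3 called rises and falls per list and comparison, by smallest p. The members, lists and tests were chosen with earlier results of these data known.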

Additional observations from a re-analysis of the deposited data

Results flagged for a closer look

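Relb in the vehicle library of young mouse 483 stood at 5.75 CPM, apart from the other 3 young vehicle libraries at 17.4 to 20.4 CPM. Its gap to the nearest library was 0.875 of the range of the group, and of 60 groups tested this was the only library set apart, where chance flags about 1 in 20 groups. The count behind it was 86. The dmPGE2 library of that mouse held 26.8 CPM.

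The response to dmPGE2 differed between the dates for Nfkbiz, by -1.47 on the log2 scale (date 2 minus date 1, adjusted p = 0.00101, edgeR quasi-likelihood test), and for Nfkbia, by 0.49 (adjusted p = 0.0302). The response of Nfkbiz was upward in 4 of 4 mice on both dates. That of Nfkbia was downward in 4 of 4 mice of date 1 and upward in 3 of 4 mice of date 2. Neutrophil markers summed to 4.11 to 9.43 CPM on date 1 and 742 to 1440 CPM on date 2, and their part in the difference was not tested.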

How the results depend on the processing

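Without the replicate block, 1 member in place of 2 was called over all mice (39 genes in place of 85). Between the dates 0 members in place of 2 differed (110 genes in place of 151). On date 2 the fit without the block called 10 genes in place of 54. With DESeq2, 1 member was called in old mice, 2 in young mice, 2 on date 2 and 5 by age with vehicle, against 0, 0, 0 and 2. Of all genes it called 114 in old and 277 in young mice, and 133 in place of 54 on date 2. By age with vehicle it called 2856 genes in place of 2318. Over all mice it called 3 members in place of 2, adding Nfkbiz, among 443 genes in place of 85. For the difference between dates it called 246 genes in place of 151. Without robust estimation 3 members, again with Nfkbiz, were called over all mice among 144 genes. With no filter on low counts 1 member was called on date 2, among 56 genes called in place of 54. Date terms in the dmPGE2 fit gave 2 in old and 3 in young mice, with 210 and 257 genes. Over all mice they gave 3 members and 347 genes. With no term for date 1 was called by age in each treatment (971 and 804 genes in place of 2318 and 1894), and Tnfaip3 with dmPGE2 turned to -0.20.

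Within each date, chosen after seeing the data, the counts on date 1 were 2 in old mice, 3 in young mice and 4 by age with dmPGE2. By age, 865 and 1057 genes were called with vehicle on dates 1 and 2, and 774 and 1097 with dmPGE2. On date 2 the member counts were 1 in young mice and 1 by age in each treatment. After dmPGE2 on date 2, 19 genes were called in old and 47 in young mice. The age difference with dmPGE2 turned there to -0.07 for Nfkb2, -0.14 for Nfkbia, -0.28 for Nfkbiz, -0.57 for Tnfaip3 and -0.33 for Zc3h12a, none of them called.

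With each mouse left out in turn, 0 to 2 members were called over all mice (0 to 166 genes). In young mice 0 to 1 were called (0 to 4 genes), on date 1 3 to 4 (236 to 446 genes) and on date 2 0 to 1 (39 to 57 genes). For the difference between dates 1 to 2 were called (100 to 160 genes). By age 1 to 4 were called with vehicle (1448 to 2129 genes) and 1 to 6 with dmPGE2 (1104 to 2167 genes). By date in vehicle libraries 1 to 4 were called (902 to 1346 genes). Uncalled values near 0 changed sign: Nfkb1 over all mice (-0.02 to 0.05), on date 1 (-0.06 to 0.14) and on date 2 (-0.06 to 0.06), Nfkb2 (-0.09 to 0.05), Bcl3 (-0.16 to 0.09) and Birc3 (-0.17 to 0.13) on date 2, and Tnfaip3 by age with dmPGE2 (-0.11 to 0.36). The causes were not tested. Bcl3 by age and Nfkbiz, Tnfaip3 and Zc3h12a on date 1 were called in every alternative run.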
